A study of Mus musculus with 2 samples.

Results

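The BCL2 family decides whether a stressed cell keeps its mitochondria intact or releases the factors that kill it. Here 10 of its genes were followed in MIN6 cells, an insulin-secreting mouse insulinoma line, with every array probe whose accession belongs to one of these genes. This gave 13 probes out of 39417 on the array and 10 genes out of 20653 that could be named. The genes are the pro-survival members Bcl2, Bcl2l1 and Mcl1, the effectors Bax and Bak1, and the BH3-only members Bad, Bid, Bbc3, Pmaip1 and Bcl2l11. The array labelled FTO holds RNA of MIN6 cells transduced with lentivirus of the vector PLVX-IRES-ZsGreen-mFTO, which adds a mouse FTO cDNA. The array labelled control holds RNA of MIN6 cells given the same vector, PLVX-IRES-ZsGreen, without the insert, so both carry virus and ZsGreen. The cells were at passages 15 to 20 and derive from a tumor of a transgenic C57Bl/6 mouse. ZsGreen fluorescence was checked 48 h into transduction, and the time of RNA harvest is not given in the sources used here. There was 1 array per condition and the number of cultures behind each is not given, so no difference below has a replicate check or a p-value.

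Pro-survival BCL2 proteins sit on the outer mitochondrial membrane and hold back BAX and BAK, which form pores in it once set free. BH3-only proteins sense stress and tip this balance, either by occupying the pro-survival proteins or by switching on the effectors. In beta cells this switch is known as a route to cell death under ER stress and inflammatory cytokines. Much of its control lies in protein turnover, phosphorylation and cleavage, which RNA arrays do not measure.

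Expression was read on 1-color Agilent arrays as the intensity of each spot after background subtraction, and the arrays were then quantile normalized on the log2 scale. Differences are FTO minus control. The spot error joins the errors that the scanner software gives for either spot. For bright spots it was nearly the same at every probe, about 0.20 on the log2 scale. Exceeding it there amounts to passing a nearly fixed cut-off, not a spread measured for that probe. Probes well above background on 1 or both arrays were tested, and a difference was called past 2-fold or past 1.5-fold. Pairs of signals are given as read before normalization, FTO first. The median spot signal was 292 for FTO and 237 for control. The single Fto probe read 7301 and 5179 and differed by 0.06 on the log2 scale, inside its spot error of 0.20, so the targeted gene gives no check of the labels, on which each direction rests. A loss of cells and a loss of RNA per cell cannot be told apart in such bulk samples. All 14 listed beta cell markers were well above background on both arrays, and none passed 1.5-fold after quantile normalization, though Ins2 did after 75th percentile scaling, at -0.64. Of 16 listed markers of other islet, pancreatic, stromal and immune cells, 15 had a probe and 12 were tested. Gcg, the glucagon gene, was among the bright ones at 257738 and 243795, while Ptprc, a leukocyte marker, had 33.7 and 38.0 and Pdgfrb, a pericyte marker, did not rise well above background on either array. Among the 12, Amy2a5 alone passed 1.5-fold, at a log2 difference of -0.72 on signals of 51.4 and 76.6, and after normexp its value was -0.23 and it no longer did. After 75th percentile scaling Amy2a5 was just past 2-fold lower and Ptprc passed 1.5-fold too. The part of other cells in the results was not tested.

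Control regions are shown for the members whose brightest probe differed by more than its spot error. For Mcl1, Bad and Bbc3 the 250 bases before the transcript start are printed. Those of Bax are added, the only member in whose windows a p53 half-site was found. They are RefSeq sequences of build GRCm38.p6, read 5′ to 3′ along the gene. Where a gene has several starts, the window with the lowest coordinate is shown. Capitals mark GC boxes (GGGCGG on either strand) and, in Bax, also the p53 half-site, the first capital run.
Mcl1, chr3:95658471-95658720, plus strand: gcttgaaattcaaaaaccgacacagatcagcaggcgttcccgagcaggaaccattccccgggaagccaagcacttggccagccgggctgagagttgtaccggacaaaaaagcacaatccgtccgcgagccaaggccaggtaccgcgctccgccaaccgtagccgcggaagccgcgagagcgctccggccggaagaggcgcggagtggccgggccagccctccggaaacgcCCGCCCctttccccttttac
Bad, chr19:6941611-6941860, plus strand: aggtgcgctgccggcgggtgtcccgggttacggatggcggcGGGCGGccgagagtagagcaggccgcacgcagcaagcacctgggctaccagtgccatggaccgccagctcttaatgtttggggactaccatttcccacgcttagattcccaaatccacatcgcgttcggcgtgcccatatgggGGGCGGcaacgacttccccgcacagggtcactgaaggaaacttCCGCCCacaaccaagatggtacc
Bbc3, chr7:16309333-16309582, plus strand: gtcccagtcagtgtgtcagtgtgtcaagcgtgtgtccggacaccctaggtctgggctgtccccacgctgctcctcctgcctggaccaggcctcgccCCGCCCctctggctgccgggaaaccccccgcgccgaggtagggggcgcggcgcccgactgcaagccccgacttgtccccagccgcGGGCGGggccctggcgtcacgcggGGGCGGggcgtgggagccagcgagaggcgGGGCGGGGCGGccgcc
Bax, chr7:45466899-45467148, minus strand: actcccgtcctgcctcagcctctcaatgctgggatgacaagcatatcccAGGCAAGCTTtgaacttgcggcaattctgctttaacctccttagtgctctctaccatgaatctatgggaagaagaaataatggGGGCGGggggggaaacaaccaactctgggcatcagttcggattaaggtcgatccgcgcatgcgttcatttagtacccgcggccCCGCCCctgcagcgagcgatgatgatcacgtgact
Windows could be read for 9 of the 10 genes, 15 windows in all. Pmaip1 has no entry in the table. A GC box was in 10 of the 15 windows, from 7 genes, against 32.7% of 32851 mouse promoter windows of the same length. Some genes have several windows, and those of Bbc3 partly overlap, so the 15 are not independent units. The median GC content was 64.4% over the member windows and 52.4% over all windows. No member window held a TATAAA, which was in 12.4% of all windows, or a TGATGNAA, in 3.45%, the letters of the element that the stress factors ATF4 and CHOP read. A FOXO site (TGTTTAC) was in 2 windows, of Bcl2l11 and Bbc3, and in 3.17% of all windows. An NF-kB site, searched by its consensus, was in 2 windows, of Bcl2l1 and Bbc3, and in 7.25% of all. An E-box (CACGTG) was in 2 windows, of Bbc3 and Bax (6.02% of all), a CCAAT in 4 windows of Bcl2l11, Bbc3 and Bad (33.8%), and neither TGACGTCA (1.55%) nor TTCNNNGAA (7.02%) was in any. The p53 half-site, a 10-base consensus that is only part of a full p53 site, was in 7.13% of all windows. Among the members it was in 1 window of Bax. All motifs were searched on both strands, and the matches describe letters and were not tested for binding.

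All 13 member probes were well above background on both arrays, so RNA of each of the 10 genes was detected under both conditions. None of their spots was flagged as an outlier. The signals ran from 27.2, for Pmaip1 on the array labelled control, to 32037, for Bcl2l1 on the array labelled FTO. A probe's brightness depends on its own sequence, so these signals do not rank the genes, and pro-survival and pro-death RNA cannot be weighed against each other by level. What can be compared is how far each probe moved between the arrays. Before normalization 11 of the 13 probes were brighter on the array labelled FTO, as was the median spot, and 2 were dimmer.

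**Figure D1:**
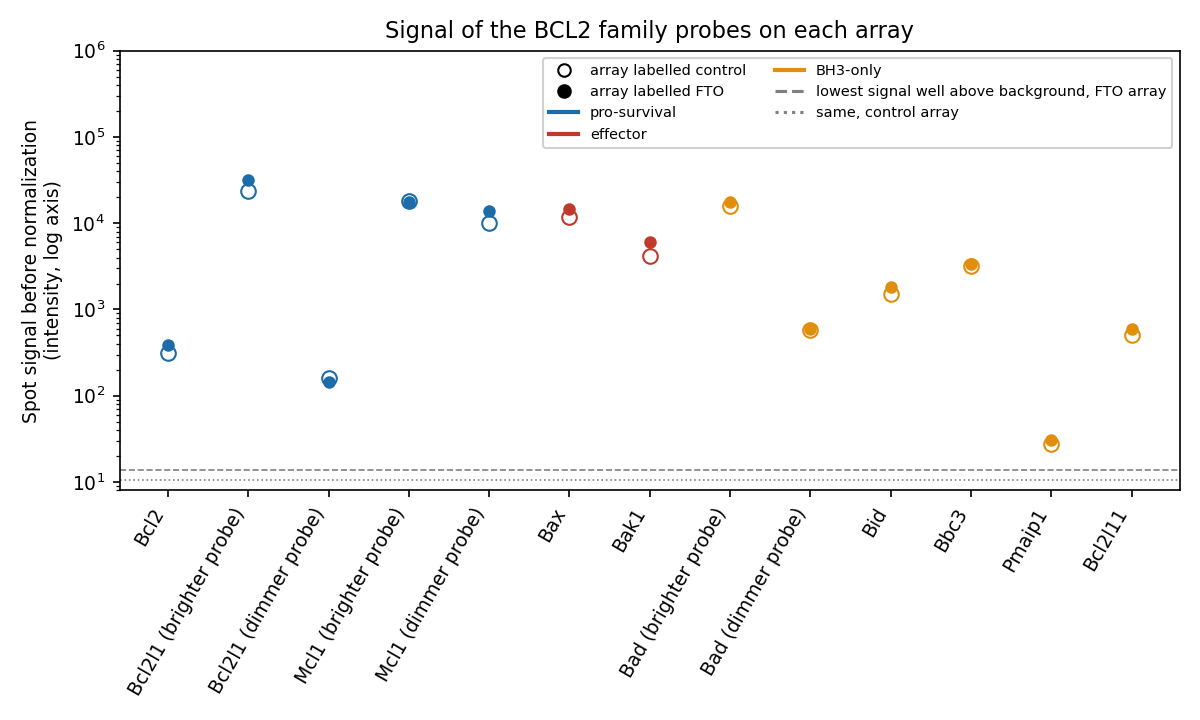
Spot signal before normalization (intensity, log axis) of the 13 BCL2 family probes on the array labelled control (open) and the array labelled FTO (filled), colored by role. Each vertical pair is 1 probe on both arrays, heights of different probes are not comparable, and every point lies above the lowest signal well above background on its array, 13.6 for FTO (dashed) and 10.6 for control (dotted).

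No member passed 2-fold in either direction, and none passed 1.5-fold. Over all 18513 named genes tested at their brightest probe, 2.68% passed 2-fold (1.09% higher, 1.6% lower) and 6.96% passed 1.5-fold (2.8% higher, 4.15% lower). A count of 0 among 10 genes does not stand apart from these shares. The largest member difference was -0.45 on the log2 scale, at the brighter Mcl1 probe. At the brightest probe 6 members lay below 0 and 4 above, against 48.3% of all named genes below 0 and 51.6% above. Their median was -0.12, beside 0.0064 over all named genes. The 6 below 0 were Mcl1, Bax, Bad, Bid, Bbc3 and Bcl2l11, and each stayed below 0 under all 5 normalizations compared. The 5 count the main one and the authors' deposited table, which is quantile normalized too and gave nearly the same values. Bak1 alone stayed above 0, and Bcl2, Bcl2l1 and Pmaip1 changed sign.

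**Figure D2:**
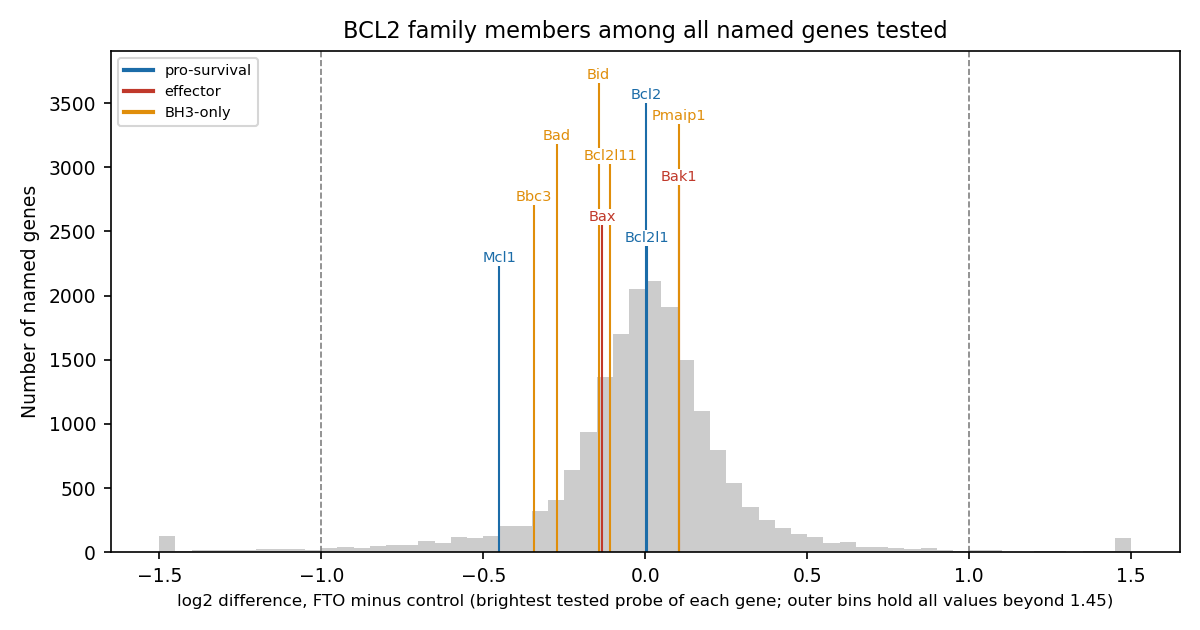
Number of named genes (grey bars, 18513 genes) by log2 difference, FTO minus control, at the brightest tested probe of each gene, with colored lines at the 10 BCL2 family members and dashed lines at 2-fold. The members lie between -0.45 (Mcl1) and 0.10 (Pmaip1), all well inside the dashed lines.

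Among the pro-survival members, Bcl2 and the brighter Bcl2l1 probe were close to equal on both arrays after normalization, while Mcl1 and Bcl2l1 each had a pair of probes that disagreed. Bcl2 encodes the founding member, which guards mitochondria and the ER. Its probe (NM_177410) read 387 in FTO and 309 in control. After normalization the values differed by 0.0028 on the log2 scale, far inside the spot error of 0.20. This is 1 of 2 RefSeq mRNA accessions of Bcl2, and the other is not on the array, so the value may not hold for every Bcl2 transcript.

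Bcl2l1 encodes BCL-XL, a main survival protein of many cells. The brighter probe (NM_009743) read 32037 in FTO and 23571 in control, and the log2 difference was 0.0044. The dimmer probe, listed under the same accession, read 143 and 162, and its log2 difference of -0.40 exceeded its error of 0.21. The value of the dimmer probe was -0.61 after scaling by the 75th percentile, which is past 1.5-fold, and -0.23 after normexp. Both stand under 1 of 5 RefSeq mRNA accessions of Bcl2l1, and the others are not on the array. The first pair of signals is near the array-wide shift and the other goes against it. The probes differed from each other by 0.40, more than their combined spot error of 0.29. A gap at least as wide was found for 13.4% of the 3636 accessions with a pair of probes well above background on both arrays, where the median gap was 0.14.

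Mcl1 encodes a short-lived survival protein that must be made continually. Its brighter probe (NM_008562) read 17834 in FTO and 17876 in control. These are nearly equal, while the median signal was higher in FTO, and after normalization the log2 difference was -0.45 (spot error 0.20), or 0.732 times the control. The dimmer probe read 13986 and 9946, with a log2 difference of 0.05. This probe moved with the array and not with its partner. The gap of 0.50 was wider than the combined error of 0.29, and 8.8% of accessions with a pair of probes had one as wide. Neither spot lay in an area of lost signal, with 0 of 21 repeated spots lost around them on either array. What each probe reads along the Mcl1 transcript is not in the files, and the part of this in the gap was not tested.

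The effectors Bax and Bak1 lay on opposite sides of 0, each within its spot error. Bax encodes a cytosolic protein that moves to mitochondria and forms pores there. Its probe (NM_007527), whose promoter is printed above, read 14459 and 11676, which gave a log2 difference of -0.13 (spot error 0.20). Bak1 encodes the effector that already sits in the mitochondrial membrane. Its probe (NM_007523) read 5986 and 4163, which gave 0.10. Neither can be told from no difference by this error. Under the alternatives Bax lay between -0.14 and -0.11 and Bak1 between 0.09 and 0.12.

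Of the BH3-only members, Bbc3 and Bad had differences below 0 that exceeded their spot errors, and Bid, Bcl2l11 and Pmaip1 did not. Bbc3 encodes PUMA, which binds all pro-survival members and is a known target of p53 and of the CHOP arm of ER stress. Its probe (NM_133234) read 3342 in FTO and 3194 in control, for a log2 difference of -0.34 (spot error 0.20). Only 1 of 6 RefSeq mRNA accessions of Bbc3 is on the array. It lay between -0.37 and -0.33 under the alternatives, and 2 of 25 repeated spots in its block had lost signal in FTO. Bad encodes a sensitizer that growth factor signaling silences by phosphorylation. Its brighter probe (NM_007522) read 17854 and 15836, a log2 difference of -0.27. The dimmer one read 592 and 579, a log2 difference of -0.31, so the Bad probes lay within 0.04 of each other. Their accession is 1 of 2 for Bad. The dimmer spot lies in a block of the array labelled FTO where 6 of 31 repeated spots had lost signal, and the brighter one lies in a block where 0 of 20 had.

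Bid encodes the protein that caspase-8 cleaves to link death receptors to mitochondria. Its probe (NM_007544) read 1805 and 1516, with a log2 difference of -0.14, inside the spot error of 0.20. The spot lies in a block of the array labelled control where 2 of 11 repeated spots had lost signal, and the part of that was not tested. Bcl2l11 encodes BIM, which can engage both pro-survival proteins and effectors. Its probe (NM_207680), under 1 of 5 RefSeq mRNA accessions, read 589.8 and 502, with a log2 difference of -0.11, also inside the spot error. Pmaip1 encodes NOXA, which pairs mainly with MCL1. Its probe (NM_021451) was the dimmest, at 30.8 and 27.2, and its log2 difference of 0.10 came with the widest spot error, 0.27. With scaling by the 75th percentile the Pmaip1 value was -0.25, so its direction depends on the normalization.

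**Figure D3:**
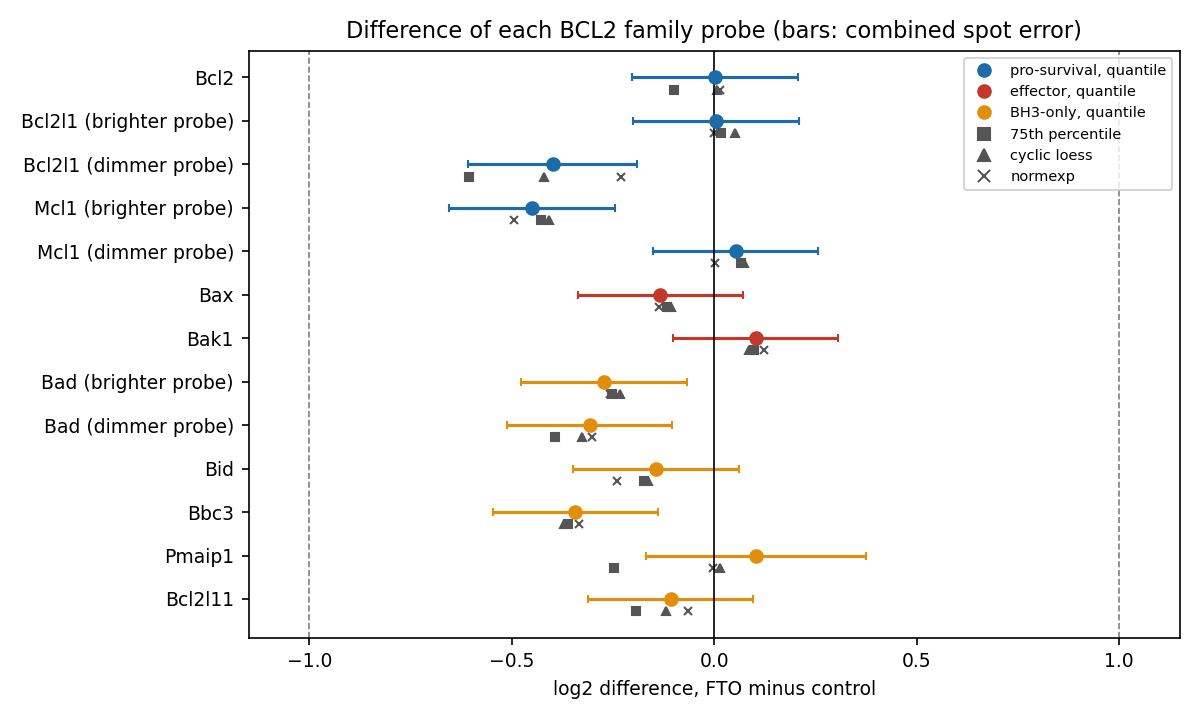
Log2 difference, FTO minus control, of each of the 13 BCL2 family probes after quantile normalization (circles, colored by role, bars show the combined spot error), with 3 other ways of processing as grey marks and dashed lines at 2-fold. The bars of 5 probes do not reach 0 (the dimmer Bcl2l1 probe, the brighter Mcl1 probe, both Bad probes and Bbc3), all on the side lower in FTO, and 27.1% of named probes well above background on both arrays lay beyond their own spot error.

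The spot error covers the scan of single spots. Another measure comes from probes printed 10 times on each array, whose spots vary within an array only. It is narrower than the spot error for every member but Pmaip1, where it is wider. By it the SD of a difference was 0.08 for the brightest members and 0.46 for Pmaip1, and 9 of the 13 member probes differed by more. Over the 23273 named probes well above background on both arrays the share beyond this SD was 53.8% (29.3% higher, 24.5% lower). Beyond the spot error lay 5 member probes, all lower in FTO, against 27.1% of those probes (15.2% higher, 11.9% lower). Neither count is read as particular to the family. Neither measure holds the variation between cultures or labelings. Set beside the 12155 named genes with a mean log2 signal over 8, where the 5th and 95th percentiles were -0.25 and 0.26, 4 of the 11 member probes of that brightness lay below the range and none above. They were the brighter Mcl1 probe, both Bad probes and Bbc3. Bad is thus counted by both of its probes, and the dimmer lies in a block of lost signal in FTO. The dimmer Mcl1 probe, at 0.05, lay inside the range. This count is not read as particular to the family either. The units differ, since the percentiles take each gene at its brightest probe and the members are counted by probe.

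By role, the medians at the brightest probes were 0.0028 for the 3 pro-survival genes, -0.01 for the 2 effectors and -0.14 for the 5 BH3-only genes. The pro-death genes as a whole had a median of -0.13, which puts their shift relative to the pro-survival genes at -0.14 on the log2 scale. With the median over a gene's probes in place of the brightest, the shift was 0.06, with the opposite sign. Since the sign changes with the choice of probe, no direction of the balance is read from these medians.

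The ratios of single genes give the parts of this shift. Each of the 7 pro-death genes was set against each of the 3 pro-survival genes, which gives 21 pairs and compares only how far probes moved. In 11 pairs the ratio was higher on the array labelled FTO and in 10 it was lower, and in 7 the shift exceeded the combined spot error. Against Mcl1 all 7 ratios were higher, from 0.11 for Bbc3 to 0.55 for Pmaip1, and 5 exceeded the error. Against Bcl2 only Bak1 and Pmaip1 were higher, and the ratio of Bax to Bcl2, often quoted as an index of the balance, was -0.14 with an error of 0.29. After 75th percentile scaling the ratio of Bax to Bcl2 was -0.02 and that of Pmaip1 to Bcl2 was -0.15, below 0. The ratio of Pmaip1 to Bcl2 was also below 0 after normexp, at -0.02. With the dimmer Mcl1 probe in place of the brighter one, 5 of the 7 ratios to Mcl1 were lower and they ran from -0.40 to 0.05. With the dimmer Bcl2l1 probe, all 7 ratios to Bcl2l1 were higher, from 0.06 to 0.50, whereas 5 of 7 were lower with the brighter one. For 10 of these 14 ratios the direction thus changes with the probe that stands for Mcl1 or Bcl2l1, while the 4 ratios of Bak1 and Pmaip1 were above 0 with either. Those of Bak1 were so under all 5 normalizations, the main one and the nearly identical authors' table counted separately. After 75th percentile scaling the ratio of Pmaip1 was -0.26 to the brighter Bcl2l1 probe, -0.31 to the dimmer Mcl1 probe and 0.18 to the brighter one. The ratio of Pmaip1 to the brighter Bcl2l1 probe was also below 0 after cyclic loess, at -0.04, and after normexp, at -0.0034. That to the dimmer Mcl1 probe was below 0 after both as well, at -0.06 and -0.0058. With the dimmer Bcl2l1 probe the ratios of Bad, Bid and Bbc3 were below 0 after normexp, at -0.03, -0.01 and -0.10.

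**Figure D4:**
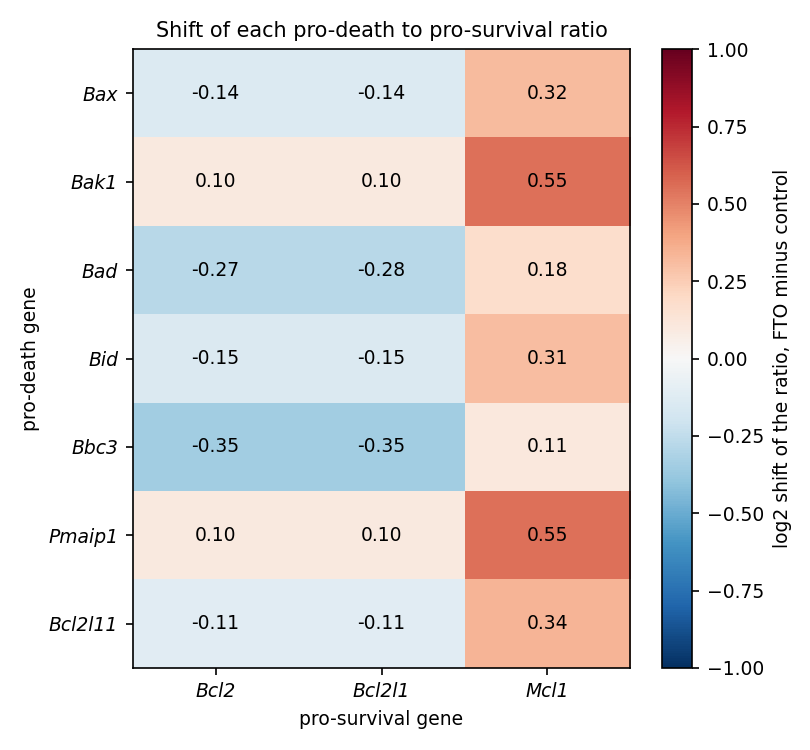
Shift on the log2 scale of each pro-death to pro-survival ratio between the array labelled FTO and the array labelled control, with the brightest probe of each gene (red higher in FTO, blue lower). The Mcl1 column is positive in all 7 rows, from 0.11 to 0.55, and rests on 1 of the 2 Mcl1 probes, while the Bcl2 and Bcl2l1 columns each hold 5 negative values.

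Other relatives of the family were spread around 0. Of 16 listed, 14 had a probe and all 14 were tested, with a median of 0.02 and 7 on each side of 0. Of all named genes 1.09% were past 2-fold higher in FTO. Bcl2a1c, one of several near-identical copies of a survival gene of blood cells, was past 2-fold on the normalized signals. It read 16.1 in FTO and 2.14 in control, where it was not well above background. The difference is therefore a bound of at least 1.62-fold higher in FTO, or at least 1.20-fold after 75th percentile scaling and 1.31-fold after normexp. The spot lies in a block of lost signal, and RNA of other copies could bind this probe. Bcl2l2, the survival gene for BCL-W, had log2 differences of 0.12 at signals of 27542 and 18612 and 0.55 at signals of 3429 and 1784. Its probes, like those of Mcl1, lay apart. Hrk, a BH3-only gene of neurons, had the lowest value at -0.55 on signals of 154 and 190.0, and after 75th percentile scaling it was past 1.5-fold at -0.73. Among other BH3-only genes Bmf had -0.20 and Bik 0.06, with spots in blocks of lost signal in control and FTO. Bnip3 and Bnip3l, which act in removal of mitochondria, had 0.05 and -0.0027. The values of Bik, Bnip3 and Bnip3l changed sign after 75th percentile scaling, to -0.07, -0.01 and 0.01.

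All 16 listed genes that act below mitochondria were tested and had a median of 0.02. At the brightest probe none passed 1.5-fold, which does not stand apart from the 6.96% of all named genes that did. Apaf1, the scaffold of the apoptosome, had the highest value at 0.18. Cycs, the cytochrome c that BAX and BAK pores let out, had 0.03 at its brightest probe (-0.21 after 75th percentile scaling) and 0.61 at its dimmest, which read 74.0 and 44.2. Xiap, an inhibitor of caspases, had 0.14 at a spot in a block of lost signal in FTO. After quantile normalization the brightest-probe values of this list all lie within the spot error of 0.20.

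The death receptor branch, which reaches the family through BID, had 10 listed genes, all tested, with a median of 0.10. Fasl was the only gene past 1.5-fold, at 0.59 on dim signals of 41.0 and 25.7, and it had 0.25 after 75th percentile scaling and 0.09 after normexp. Tnfsf10, the ligand TRAIL, read 3827 and 2157, with a log2 difference of 0.42. Its mouse receptor Tnfrsf10b had -0.26 and lies in a block of lost signal on the array labelled FTO. Casp8 itself had -0.09 and Cflar, its inhibitor, 0.07 at a spot in a block of lost signal in control. The 1 call among 10 genes is read against the 2.8% of all named genes past 1.5-fold in that direction.

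The list of 28 partners and regulators of the members had a median of -0.0025 and no gene past 1.5-fold. Of all named genes 6.96% were past it, and the count does not stand apart from that share. Ddit3, the gene for CHOP, which is known to raise Bcl2l11 and Bbc3 and to lower Bcl2, was the lowest at -0.52, with signals of 5082 and 5442. Ddit3 is past the 5th percentile of bright genes, as Bbc3 is, while Bcl2l11 at -0.11 and Bcl2 at 0.0028 are not. The part of Ddit3 in these values was not tested. Foxo3, another activator of Bcl2l11 and Bbc3, had -0.05. Huwe1 and Usp9x, which add and remove ubiquitin on MCL1, had 0.12 and 0.08, and Vdac2, a mitochondrial partner of BAK, had 0.0072. The spots of Usp9x and Vdac2 lie in blocks of lost signal in FTO. Trim17 was the highest at 0.25 on dim signals of 63.7 and 48.8, and it had -0.04 after 75th percentile scaling. Under that scaling Foxo3 had -0.31 and Vdac2 -0.17.

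For p53, the activator of Bax, Bbc3 and Pmaip1, the 19 listed genes had a median of -0.04, none passed 1.5-fold, 8 lay above 0 and 11 below. Over all named genes 6.96% passed 1.5-fold, 51.6% lay above 0 and 48.3% below. Trp53, whose spot lies in a block of lost signal on the array labelled FTO, had -0.13 and Mdm2, its inhibitor and target, -0.10. Cdkn1a, the cell cycle inhibitor p21, had -0.26 at a probe printed 10 times and -0.25 at a dimmer probe. Sesn2 was the lowest at -0.36, next to Phlda3 at -0.35, whose spot lies in such a block too, and Eda2r was the highest at 0.25, on dim signals of 81.8 and 61.4, but had -0.01 after 75th percentile scaling. MIN6 cells carry a viral T antigen known to bind p53, which limits them as a model of this branch.

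**Figure D5:**
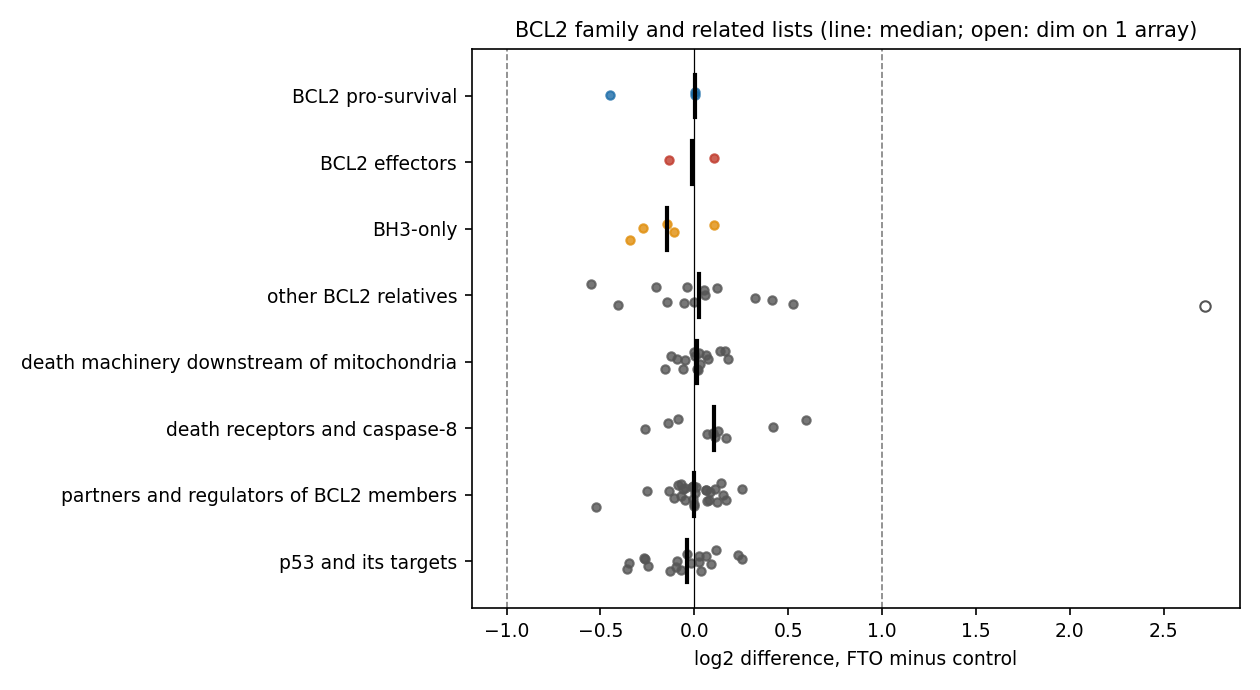
Log2 difference, FTO minus control, of each tested gene at its brightest probe for the BCL2 family by role and for 5 related lists, with a black line at each median and dashed lines at 2-fold. The only point past a dashed line is Bcl2a1c, drawn open because its control signal was not well above background, and the medians lie between -0.14 (BH3-only) and 0.10 (death receptors).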

How the data were processed

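RNA was hybridized to 2 arrays of 1 slide, scanned together. The authors deposited each spot's intensity from Agilent Feature Extraction 11.0.1.1, corrected for background and surface trend but not normalized between arrays, with its error, the raw spot and background intensities, and flags for background, saturation and outliers. The deposited log2 table of 33870 probes was quantile normalized in GeneSpring by the methods and includes all 13 member probes.

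Control and outlier spots were dropped, log2 intensities averaged per probe, and quantile normalization applied (limma 3.58.1, R 4.3.3). Python 3.11.15 with pandas 2.3.3, numpy 2.4.6 and matplotlib 3.10.9 did the rest. Unversioned accessions were matched to symbols of RefSeq's GRCm38.p6 annotation, which named 27224 of 39417 probes. The array design lists an older build, so probes have no coordinates here. Testing required 50% of a probe's spots well above background on either array. A gene's value is that of its brightest tested probe. Where one signal was not well above background, the fold is a bound, taken against the larger of that signal and the array's lowest one well above background. Areas of lost signal are blocks of 76 rows and 17 columns where 15% or more of the spots of 79 repeated probes fell over 0.5 (log2) under their probe's median, 6 blocks in FTO and 2 in control. All members were named with every probe and, from each other list, genes past 2-fold, the extremes and defining markers. The value of 1 listed gene is not reported here. Further listed genes were added after their values were seen. Members, lists and settings were chosen with earlier results of these data known. Calls were tested on simulated data. The number of arrays limits the precision, no test across samples was made, and spot errors cover the arrays only.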

Additional observations from a re-analysis of the deposited data

How the results depend on the processing

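The member results were recomputed under 10 alternatives: scaling by the 75th percentile, cyclic loess, normexp with an offset of 50, the authors' deposited log2 table, outlier spots kept, probes well above background on both arrays, no background filter, a floor for dim signals at the array's lowest value above background, the median over probes, and probes in blocks of lost signal left out. Under each of them 0 members passed 2-fold or 1.5-fold. The filters on background and the floor, 3 of the 10, could not move a member, since all member probes were well above background, and no member spot had an outlier flag. Of 104 differences, medians and shifts under the other settings, 102 moved by no more than the spot error. The other 2 were Pmaip1, at -0.25 with the 75th percentile scaling, and Mcl1, at -0.20 with the median over probes. Many of the 104 had little room to move. Keeping outlier spots and the authors' table, also quantile normalized, gave nearly the main values. The median over probes can change only genes with a pair of probes. The 102 also include Bcl2l1, which went from 0.0044 to -0.20 with the median over probes, and the shift that changed sign. The count is therefore not read as a measure of robustness. The BH3-only median lay between -0.25 and -0.14, the effector median between -0.01 and -0.0063 and the pro-survival median between -0.20 and 0.0068. The shift of pro-death against pro-survival genes ran from -0.14 to 0.06 and was above 0 with the median over probes only. With blocks of lost signal left out, Bid had no probe and gave no value. No paired analysis was possible because there is 1 array per condition, and for the same reason no replicate could be left out. Depth of signal limits Pmaip1 most, since its signals were nearest to background.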
